A study of Mus musculus with 24 samples.

Results

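The chemokine ligands were taken as all gene symbols of the deposited tables that name a CC, CXC, CX3C or C chemokine by family and number (Ccl, Cxcl, Cx3cl or Xcl), with Cxcl12 left out. That rule found 37 of 25385 genes, and it used names only, not values. The samples were marrow-derived mesenchymal stem cells of the mouse, stromal cells that can become osteoblasts or adipocytes, and their RNA was sequenced in 24 libraries that form 8 groups of 3. All cells came from cryopreserved stocks kept to at most 10 passages and were cultured in MEM alpha with fetal bovine serum and antibiotics. The day 0 groups were undifferentiated. The osteogenic groups had been kept for 7 or 15 days in medium with beta-glycerophosphate and ascorbic acid. The adipogenic groups had spent 7 days in medium with insulin, indomethacin and dexamethasone. In each of these 4 states, 3 libraries came from cells given 100 nM 1,25(OH)2D3 (VD3, the hormonal form of vitamin D, which acts through the vitamin D receptor) for 24 hours before harvest, and 3 from cells given ethanol vehicle. The labels name no animal, clone or separate culture behind a replicate, and the p-values given here therefore reflect no more than the spread among libraries, which may be technical. Indomethacin, which blocks prostaglandin synthesis, and dexamethasone, a glucocorticoid, were named only for the adipogenic medium, so their action and adipocyte formation cannot be told apart.

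Chemokines are small secreted proteins, a few of them tethered to the membrane, that guide the movement of leukocytes through G protein-coupled receptors. Marrow stromal cells are a known source of the monocyte attractants Ccl2 and Ccl7, which act on the receptor Ccr2 and draw monocytes out of the marrow. ELR-motif CXC ligands such as Cxcl1 act on Cxcr2 and mobilise neutrophils, and many inflammatory chemokine genes are induced through NF-kB. Ccl9 and Ccl6 are rodent CC chemokines that bind Ccr1, and Ccl9 is known for attracting osteoclast precursors.

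Values are RPKM (reads per kilobase of transcript, scaled to the mapped reads of a library) as the authors deposited them, summed over the transcripts of a gene. Levels are means ± SD with n = 3 libraries a group, and single libraries are listed in the order of replicates 1, 2 and 3. Differences called log2 values are on the scale of log2(RPKM + 1), where the changes of low genes look smaller than they are. Ligands rose or fell where the adjusted p of limma was below 0.05 over all 21097 tested genes, those that reached 1 RPKM in 3 libraries or more. Of the chemokine ligands, 30 were tested and the other 7 (Ccl3, Ccl12, Ccl17, Ccl24, Ccl26, Cxcl2 and Cxcl3) were too low, with a highest value between 0.98 and 3.55 RPKM.

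Day 0 libraries carried a raised signal on genes that should be silent, which set the level a ligand had to pass. Over 1463 olfactory, vomeronasal and taste receptor genes, the median was 3.39 to 4.95 RPKM in 5 of the 6 day 0 libraries, 0.46 RPKM in VD3-treated day 0 replicate 2, and 0.208 to 1.31 RPKM in the 18 libraries of differentiated cells. A ligand was called above the day 0 background where all 3 libraries of a group passed 11.5 RPKM, the highest 95th percentile of those receptor genes over the day 0 libraries. Estimated depth was 7.13 to 46.2 M reads, so that 3 reads on a transcript of 1 kilobase were worth 0.0649 to 0.421 RPKM. The 5 day 0 libraries with the raised signal were the shallowest, at 7.13 to 11.0 M reads. VD3-treated day 0 replicate 2 had 38.3 M and the differentiated libraries 12.2 to 46.2 M reads. Comparisons against day 0 vehicle therefore carry both the raised signal and the lower depth. Osteoblast markers (7 genes) summed to 27.7 to 33.5 RPKM in day 0 vehicle and 514 to 545 RPKM in osteogenic day 7 vehicle libraries, and adipocyte markers (7 genes) to 390 to 443 and, in adipogenic vehicle libraries, 29512 to 31500 RPKM. Leukocyte markers (15 genes in the table) summed to 20.2 to 28.3 RPKM in day 0 vehicle libraries. Their sums were 8.5 to 12.9 RPKM in osteogenic day 7 and 6.05 to 9.19 RPKM in adipogenic vehicle libraries. In day 0 vehicle, 0 of these markers passed the 95th percentile of the receptor genes in all 3 libraries. The day 0 sum therefore cannot be told apart from the raised signal.

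Only 4 of the 37 ligands stood above the day 0 background: Ccl2, Ccl7, Cxcl1 and Ccl9. The lowest of them by its best group was Ccl2, with 19.5 RPKM in its lowest day 0 vehicle library, and the next gene below the level was Ccl6, with 9.99 RPKM in its lowest library of VD3-treated adipogenic cells. In day 0 vehicle, osteogenic day 7 vehicle and osteogenic day 7 VD3 groups the ligands above were Ccl2, Ccl7 and Cxcl1. In VD3-treated day 0 cells no ligand had all 3 libraries above the level. In both osteogenic day 15 groups the single ligand above it was Ccl7, and in both adipogenic groups it was Ccl9. At osteogenic day 15 the mean of Cxcl1 was also above the level, at 13.1 RPKM with vehicle and 15.5 RPKM with VD3. In neither group did all 3 of its libraries pass. Set against the 95th percentile of their own libraries, 0.885 to 3.52 RPKM in differentiated cells, 9 ligands passed in at least 1 group: these 4 and Ccl6, Ccl25, Cx3cl1, Cxcl14 and Cxcl16.

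**Figure D1:**
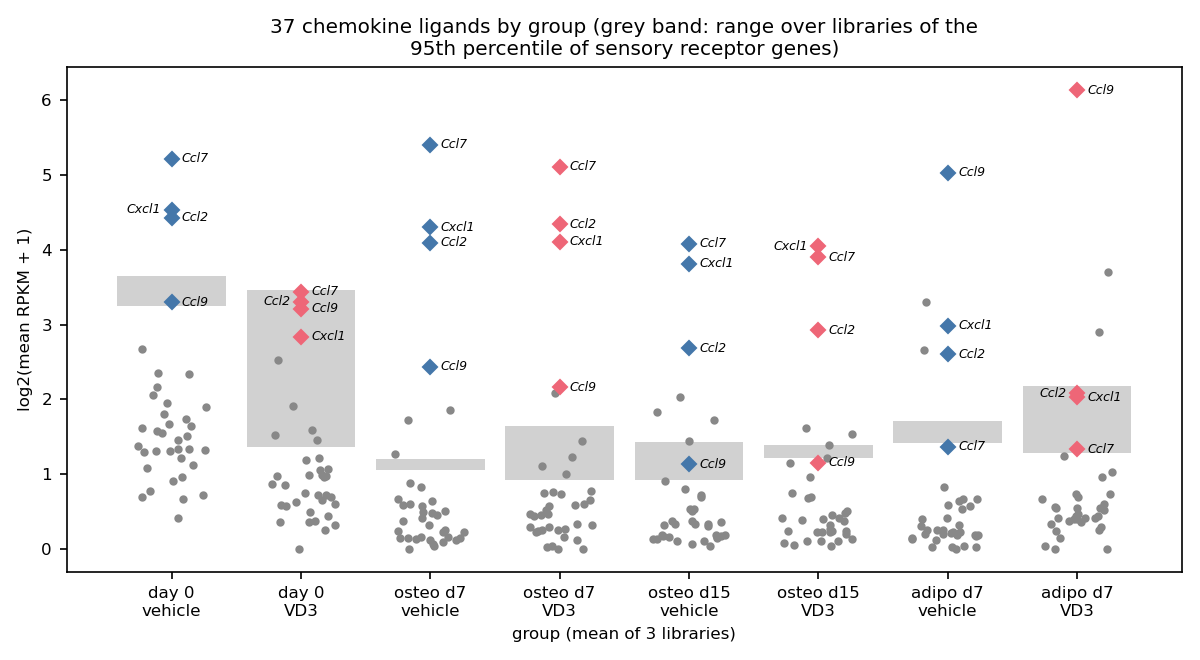
All 37 chemokine ligands in the 8 groups, as log2(mean RPKM + 1) of 3 libraries, with Ccl2, Ccl7, Cxcl1 and Ccl9 as labelled diamonds (blue vehicle, red VD3) and the other 33 as grey dots. The grey band spans the 95th percentiles of sensory receptor genes in the group's libraries; at day 0 it lies above every grey dot of the vehicle group, and in adipogenic cells Ccl9 lies highest.

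The promoters of 2 neighbouring pairs are shown because their members differed in level or moved together. Cxcl1 lies next to Cxcl2 on mouse chromosome 5, and Ccl9 next to Ccl6 on chromosome 11 (GRCm38.p6). Each sequence is the 250 bases before the RefSeq gene start, read along the gene's strand from the RefSeq promoter table of GRCm38.p6, a build other than the mm9 used by the authors. In the first pair capitals mark GGG and TTTCC with any 2 bases between, a form of the NF-kB site searched on both strands, which occurs in 1.65% of 27025 genes with such a window and in 5 of the 25 chemokine ligands that have one (Ccl20, Ccl9, Cxcl1, Cxcl2 and Cxcl3).
Cxcl1, chr5:90890995-90891244, plus strand: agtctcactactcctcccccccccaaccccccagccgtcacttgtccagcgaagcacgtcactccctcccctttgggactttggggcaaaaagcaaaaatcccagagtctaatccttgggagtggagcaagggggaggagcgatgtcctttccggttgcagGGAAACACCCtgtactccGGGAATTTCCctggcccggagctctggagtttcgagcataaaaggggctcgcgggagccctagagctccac
Cxcl2, chr5:90903649-90903898, plus strand: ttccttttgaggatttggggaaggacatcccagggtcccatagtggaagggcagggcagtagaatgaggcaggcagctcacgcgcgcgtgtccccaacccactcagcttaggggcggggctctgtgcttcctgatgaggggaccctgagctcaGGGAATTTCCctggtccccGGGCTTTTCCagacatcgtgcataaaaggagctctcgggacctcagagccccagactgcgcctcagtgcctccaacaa
In the second pair capitals mark the longest run the promoters share, 13 bases, which 5 of the 27025 windows hold.
Ccl9, chr11:83578637-83578886, minus strand: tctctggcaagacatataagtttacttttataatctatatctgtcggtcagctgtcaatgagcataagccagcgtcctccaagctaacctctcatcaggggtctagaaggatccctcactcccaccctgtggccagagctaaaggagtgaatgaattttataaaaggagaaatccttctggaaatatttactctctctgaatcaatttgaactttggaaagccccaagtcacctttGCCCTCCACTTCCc
Ccl6, chr11:83593088-83593337, minus strand: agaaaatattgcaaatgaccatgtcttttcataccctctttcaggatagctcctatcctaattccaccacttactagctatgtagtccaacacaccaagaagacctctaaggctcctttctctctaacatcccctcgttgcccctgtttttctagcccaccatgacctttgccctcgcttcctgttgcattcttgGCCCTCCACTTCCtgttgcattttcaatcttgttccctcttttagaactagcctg
Aligned over their windows with gaps allowed, the Ccl9 and Ccl6 promoters were identical at 63.1% of the positions without a gap. No other pair was aligned, so this value was not compared with that of unrelated promoters. The Ccl9 window also holds 1 match to the NF-kB letters on its reverse strand, from base -35 to base -26 before the start, not capitalised here. TATAAA occurred in 14.3% of all windows and in 10 of the 25 ligands, Ccl9 among them, and the interferon element (GAAA at 2 places with any 2 bases between, on either strand) in 3.46% of all windows and in 3 ligands (Ccl19, Cxcl10 and Cxcl14). Promoter entries were not matched for Ccl11, Ccl2, Ccl21c, Ccl24, Ccl26, Ccl4, Ccl5, Ccl7, Cxcl11, Cxcl16, Cxcl17 and Cxcl5.

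Among the 37 ligands, which leave out Cxcl12, the monocyte attractant Ccl7 was the highest in undifferentiated and osteogenic day 7 cells. It was nearly lost in adipogenic cells. Its level was 40.6, 36.6 and 31.4 RPKM in day 0 vehicle libraries (36.2 ± 4.65) and 46.3, 40.7 and 37.5 RPKM in osteogenic day 7 vehicle libraries (41.5 ± 4.44). By osteogenic day 15 it was 18.2, 15.5 and 14.1 RPKM (15.9 ± 2.13), and in adipogenic day 7 cells 1.53, 1.76 and 1.43 RPKM (1.57 ± 0.167). Day 0 and osteogenic day 7 libraries overlapped, and those of osteogenic day 15 and adipogenic day 7 lay below both. Against day 0, Ccl7 fell by 1.13 on the log2 scale at osteogenic day 15 (adjusted p = 1.49e-04, limma) and by 3.85 in adipogenic cells (adjusted p = 1.78e-12), a 23.0-fold lower RPKM. The adipogenic levels lie around the 95th percentile of the receptor genes in those libraries, 1.67 to 2.26 RPKM. At osteogenic day 7 its difference from day 0 was 0.19 ± 0.22 (SE, adjusted p = 0.454), and with median-ratio rescaling Ccl7 was called higher there (0.61, adjusted p = 0.0178).

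Ccl2, the neighbour of Ccl7 and the main Ccr2 ligand, was likewise lower at osteogenic day 15 and in adipogenic cells than at day 0. It measured 19.5, 20.3 and 21.9 RPKM at day 0 (20.6 ± 1.26), 18.8, 16.0 and 13.5 RPKM at osteogenic day 7 (16.1 ± 2.63), 6.62, 3.89 and 5.75 RPKM at osteogenic day 15 (5.42 ± 1.39) and 4.08, 4.88 and 6.29 RPKM in adipogenic cells (5.09 ± 1.12), all with vehicle. Every day 0 library was above every library of the other 3 states, and the osteogenic day 15 and adipogenic libraries overlapped. Ccl2 fell by 1.77 at osteogenic day 15 and by 1.84 in adipogenic cells against day 0 (adjusted p = 1.25e-06 and 2.84e-07, limma), 3.8-fold and 4.04-fold lower RPKM. Its difference at osteogenic day 7, -0.34 ± 0.22, did not pass (adjusted p = 0.175), but did when only the libraries compared were fitted (adjusted p = 0.0403).

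Cxcl1, the neutrophil attractant, was lower at osteogenic day 15 than at day 0 and lowest in adipogenic cells. It was 20.9, 23.1 and 22.6 RPKM at day 0 (22.2 ± 1.16) and 18.3, 19.1 and 18.8 RPKM at osteogenic day 7 (18.7 ± 0.432). It was 10.9, 13.8 and 14.5 RPKM at osteogenic day 15 (13.1 ± 1.92) and 8.09, 6.65 and 6.03 RPKM in adipogenic cells (6.92 ± 1.06). No library of any of these 4 vehicle groups overlapped with another group. The falls against day 0 were 0.73 on the log2 scale at osteogenic day 15 (adjusted p = 9.35e-04, limma) and 1.56 in adipogenic cells (adjusted p = 1.13e-07), whereas the differences of day 7 from day 0 (-0.23, adjusted p = 0.255) and of day 15 from day 7 (-0.50, adjusted p = 0.0646) did not pass, the latter doing so with only the libraries compared (adjusted p = 0.0326). After median-ratio rescaling of the libraries the osteogenic day 15 call for Cxcl1 was lost (-0.36, adjusted p = 0.113), as it was with the receptor gene median subtracted (-0.47, adjusted p = 0.137). Its neighbour Cxcl2, whose promoter holds the NF-kB letters at 2 places as that of Cxcl1 does, stayed between 0 and 0.98 RPKM over all 24 libraries.

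Ccl9 fell through osteogenesis but rose in adipogenic cells, where it was the highest of the 37 ligands. Vehicle libraries held 6.47, 9.95 and 10.1 RPKM at day 0 (8.85 ± 2.06), 4.05, 5.97 and 3.23 RPKM at osteogenic day 7 (4.41 ± 1.41), 1.29, 1.20 and 1.08 RPKM at osteogenic day 15 (1.19 ± 0.109) and 34.6, 30.3 and 30.4 RPKM in adipogenic cells (31.8 ± 2.46). The 4 groups did not overlap. Ccl9 rose by 1.76 on the log2 scale in adipogenic cells against day 0 (adjusted p = 2.49e-08, limma), a 3.59-fold higher RPKM, and by 2.63 against osteogenic day 7 (adjusted p = 2.30e-11), 7.20-fold higher. It fell by 0.87 at osteogenic day 7 and by 2.15 at osteogenic day 15 against day 0 (adjusted p = 3.05e-04 and 3.62e-09). At day 0 its levels lie near the background of the same libraries, and with the receptor gene median subtracted the osteogenic day 7 difference was -0.11 (adjusted p = 0.720).

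**Figure D2:**
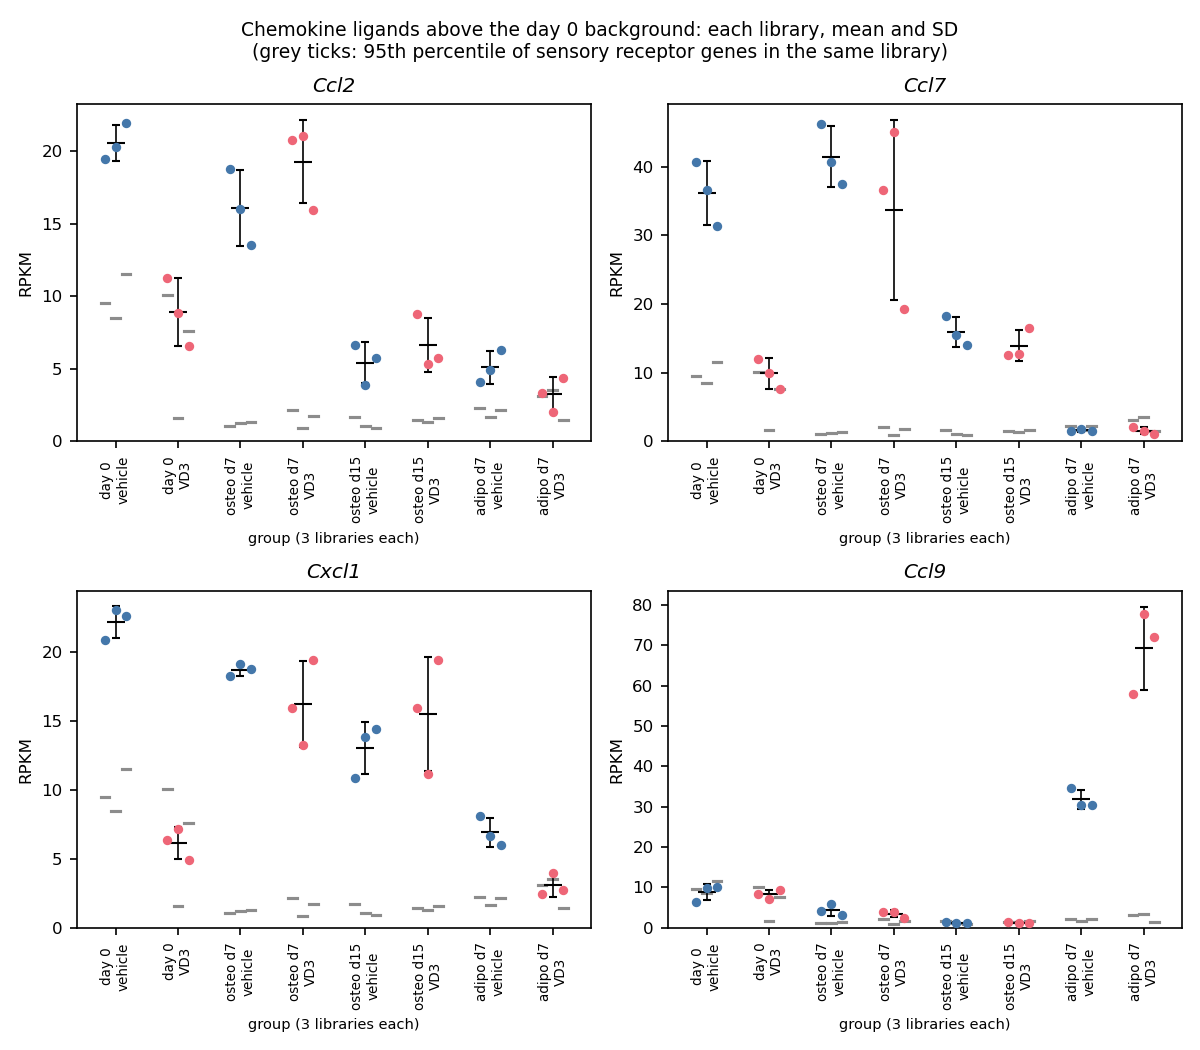
RPKM of Ccl2, Ccl7, Cxcl1 and Ccl9 in each library (blue vehicle, red VD3), with the group mean and SD of 3 libraries as black bars and the 95th percentile of sensory receptor genes of the same library as grey ticks. Ccl7 is near 36.2 RPKM at day 0 and 1.57 RPKM in adipogenic cells, while Ccl9 is at 31.8 RPKM in adipogenic cells and 69.2 RPKM with VD3.

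Ccl6, the neighbour of Ccl9 and like it a Ccr1 ligand, shared the adipogenic rise at a lower level. It measured 8.14, 7.89 and 10.5 RPKM in adipogenic vehicle libraries and 9.99, 11.2 and 14.8 RPKM with VD3, against 1.15, 2.72 and 2.05 RPKM at day 0 and 0 to 0.119 RPKM at osteogenic day 7, all with vehicle. Adipogenic libraries were all above the rest, and the rise was 1.75 against day 0 (adjusted p = 7.40e-07) and 3.20 against osteogenic day 7 (adjusted p = 3.46e-11, limma). Ccl25, a thymic and gut homing ligand of Ccr9, reached 5.42, 4.88 and 5.69 RPKM in adipogenic vehicle libraries against 2.74, 2.63 and 3.24 RPKM at day 0 and 1.04, 0.16 and 1.35 RPKM at osteogenic day 7. It rose by 0.71 against day 0 (adjusted p = 0.00862) and by 1.84 against osteogenic day 7 (adjusted p = 6.47e-07). When its largest transcript was used and not the sum, the rise of Ccl25 over day 0 was 0.22 (adjusted p = 0.413), and with a pseudocount of 0.1 it did not pass (adjusted p = 0.0656). Leukocytes also make Ccl9 and Ccl6. Of their 7 tested markers, 2 were called higher and 1 lower in adipogenic than in osteogenic day 7 vehicle cells (12.4% and 25.4% of all genes). Against day 0, whose vehicle libraries carried the raised receptor signal, 0 were higher and 3 lower (13.2% and 65.5% of all genes). Lyz2 was 2.92 ± 0.962 RPKM in adipogenic and 0.924 ± 0.271 RPKM in osteogenic day 7 vehicle libraries, and Cd68 1.54 ± 0.151 and 0.339 ± 0.225 RPKM. Cd14 went the other way, at 0.951 ± 0.242 RPKM in adipogenic and 5.61 ± 1.17 RPKM in osteogenic day 7 vehicle libraries. In adipogenic vehicle libraries the markers were at 0.394 ± 0.0713 RPKM for Ptprc, 0.645 ± 0.329 RPKM for Emr1, 0.190 ± 0.171 RPKM for Csf1r and 0.165 ± 0.0477 RPKM for Itgam, and only 1 of the 15 markers passed its own libraries' background in all 3. Their part in the rises of Ccl9 and Ccl6 was not tested. In these bulk samples fewer cells of a type and less RNA per cell cannot be told apart.

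Cxcl14 and the membrane-anchored ligands Cx3cl1 and Cxcl16 were low, and the whole groups in which they passed the background of their own libraries were all osteogenic. Cxcl14, a constitutive ligand of epithelia and stroma, held 3.02, 2.76 and 2.05 RPKM at osteogenic day 7 and 2.46, 3.87 and 2.88 RPKM at day 15, against 0.217, 0.044 and 0.251 RPKM in adipogenic vehicle libraries. It was lower in adipogenic than in osteogenic day 7 cells by -1.62 (adjusted p = 3.81e-05, limma) and higher at osteogenic day 15 than at day 0 by 0.68 (adjusted p = 0.0328). The latter call did not hold without day 0 vehicle replicate 2 (0.41, adjusted p = 0.213), osteogenic day 15 vehicle replicate 2 (0.54, adjusted p = 0.129) or its replicate 3 (0.71, adjusted p = 0.0568), or with a pseudocount of 0.1 (adjusted p = 0.199). Cx3cl1, the ligand of Cx3cr1 on monocytes, went from 2.38, 2.17 and 2.33 RPKM at osteogenic day 7 to 0.618, 0.723 and 0.604 RPKM at day 15, a fall of -1.0 (adjusted p = 1.56e-04). The 2 groups did not overlap. Against day 0 the direction for Cx3cl1 at osteogenic day 7 turned with the handling of the background, from -0.63 (adjusted p = 0.00218) to 1.5 (adjusted p = 2.51e-04) once the receptor gene median was subtracted. Cxcl16 fell by 0.69 between osteogenic and adipogenic day 7 (adjusted p = 0.0150), from 1.42 ± 0.194 to 0.504 ± 0.175 RPKM, and this call was lost without osteogenic day 7 vehicle replicate 1 (adjusted p = 0.0596) or adipogenic vehicle replicate 1 (adjusted p = 0.0687).

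**Figure D3:**
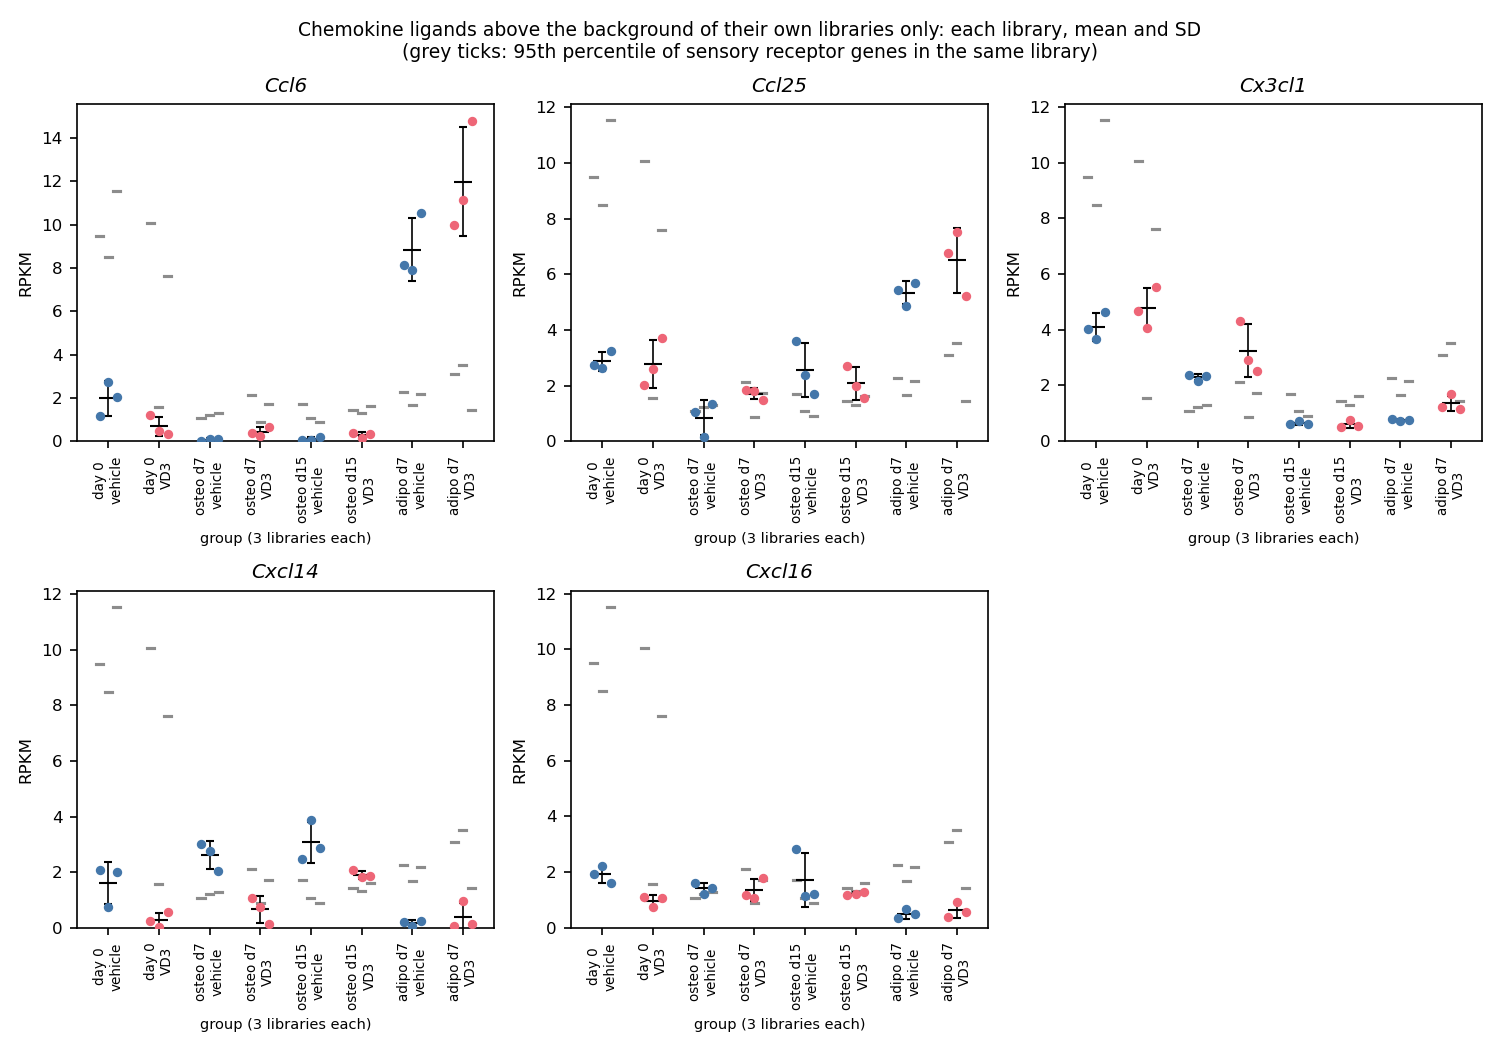
RPKM of Ccl6, Ccl25, Cx3cl1, Cxcl14 and Cxcl16 in each library (blue vehicle, red VD3), with group mean and SD as black bars and the 95th percentile of sensory receptor genes of the same library as grey ticks. Ccl6 at 8.85 RPKM and Ccl25 at 5.33 RPKM lie above the ticks in adipogenic vehicle libraries, and the ticks of 5 day 0 libraries lie above all day 0 points.

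The other 28 ligands never rose above the background of their own libraries in a whole group. Among them were the Cxcr3 ligands Cxcl9, Cxcl10 and Cxcl11, the T cell attractant Ccl5, the lymphoid ligands Ccl19, Ccl20, Ccl21a, Ccl21b, Ccl21c and Cxcl13, the eosinophil attractants Ccl11, Ccl24 and Ccl26, and the monocyte attractants Ccl8 and Ccl12. Their median was 0.193 RPKM over the 18 differentiated libraries, where 137 of 504 values were 0 and the highest was 4.91 RPKM (Ccl8, in 1 osteogenic day 15 vehicle library). In the 5 day 0 libraries with the raised receptor signal their median was 1.19 RPKM and their highest value 7.86 RPKM. In VD3-treated day 0 replicate 2, the day 0 library with the low receptor signal, 24 of the 28 were lower than in all other 5 day 0 libraries. The near-identical Ccl21a, Ccl21b and Ccl21c, and likewise Ccl27a and Ccl27b, can exchange reads, so their single values are uncertain. In VD3-treated day 0 replicate 2, 6 ligands were above its own 95th percentile of 1.57 RPKM: Ccl7 at 9.98, Ccl2 at 8.83, Ccl9 at 7.21, Cxcl1 at 7.15, Cx3cl1 at 4.08 and Ccl25 at 2.60 RPKM. This list rests on 1 library and covers VD3-treated cells only, as no day 0 vehicle library had the low receptor signal.

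Against day 0 most tested ligands were called lower, as were most of all genes called. At osteogenic day 7, 23 of 30 tested ligands fell and 0 rose (0 also at an unadjusted p below 0.05, limma), where 50.4% of all genes were called lower and 13.6% higher. At osteogenic day 15, 22 fell and 1 rose (53.4% and 17.5% of all genes). In adipogenic cells 25 fell and 3 rose (65.5% and 13.2%). The median log2 difference was -1.0, -1.11 and -1.16 over the ligands in these comparisons and -0.46, -0.55 and -0.83 over all genes tested, and the 3 comparisons share their day 0 libraries. These counts moved with the receptor signal: after its median was subtracted, 3 ligands were called higher and 0 lower at osteogenic day 7 (Cx3cl1, Cxcl14 and Cxcl16 rose), 4 higher and 3 lower at osteogenic day 15, and 3 higher and 3 lower in adipogenic cells, of 10 that could still be tested. The share of all genes called with that median subtracted was not computed, so these ligand counts cannot be set beside it. Quantile normalization called 3 higher and 5 lower, 4 and 7, and 3 and 8. Among all genes called, 21.3, 24.7 and 16.7% were higher, which became 43.4, 40.9 and 36.4% after the libraries were rescaled by median ratio and 59.4, 58.6 and 51.0% after quantile normalization.

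Between differentiated states, where the receptor signal was low on both sides, the ligands called included some above the day 0 background and some below it. From osteogenic day 7 to day 15, 4 of 30 ligands fell (6.47% of all genes) and 1 rose (6.87%). Ccl2 fell by 1.43, Ccl7 by 1.33, Ccl9 by 1.28 and Cx3cl1 by 1.0, while Ccl25 rose by 0.97. The rise of Ccl25 did not pass without osteogenic day 7 vehicle replicate 2 (0.67, adjusted p = 0.0559), with only the libraries compared (adjusted p = 0.0780) or in VD3-treated libraries (0.17, adjusted p = 0.822). Between adipogenic and osteogenic day 7, 3 ligands were higher in adipogenic cells (12.4% of all genes), namely Ccl9, Ccl6 and Ccl25. Another 6 were lower (25.4% of all genes), namely Ccl7 by -4.04, Cxcl14 by -1.62, Ccl2 by -1.50, Cxcl1 by -1.32, Cx3cl1 by -0.90 and Cxcl16 by -0.69. Both comparisons share the osteogenic day 7 vehicle libraries. Of all genes called, the share that was higher went from 51.5 to 40.7% in the first and from 32.9 to 46.2% in the second with median-ratio rescaling.

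VD3 lowered Ccl7, Ccl2 and Cxcl1 in undifferentiated cells. Ccl7 went from 36.2 ± 4.65 RPKM with vehicle to 12.0, 9.98 and 7.63 RPKM with VD3 (9.88 ± 2.20). Ccl2 went from 20.6 ± 1.26 to 11.3, 8.83 and 6.57 RPKM (8.89 ± 2.35), and Cxcl1 from 22.2 ± 1.16 to 6.37, 7.15 and 4.91 RPKM (6.14 ± 1.14). In each gene every VD3 library was below every vehicle library. The falls were 1.79 for Ccl7 (adjusted p = 5.77e-06, limma), 1.15 for Ccl2 (adjusted p = 9.39e-04) and 1.71 for Cxcl1 (adjusted p = 3.48e-07), that is 3.67-fold, 2.31-fold and 3.61-fold lower RPKM. The receptor genes' 95th percentiles in VD3 replicates 1 and 3 were 10.1 and 7.61 RPKM. Cxcl1 lay below them in both, and Ccl2 in replicate 3, so these folds carry the raised signal. Ccl9 differed by -0.07 ± 0.18 (adjusted p = 0.799), at 8.24, 7.21 and 9.42 RPKM with VD3. Without VD3 replicate 2, which leaves 5 day 0 libraries that all carry the raised receptor signal, the falls were 1.80, 1.16 and 1.81 (adjusted p = 4.75e-05, 0.00478 and 1.44e-06).

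Altogether 10 of 30 ligands fell with VD3 at day 0 (11% of all genes were called lower) and 0 rose (0 also at an unadjusted p below 0.05, limma), where 3.98% of all genes were called higher. The other 7 were the low genes Ccl6, Ccl19, Ccl22, Ccl27b, Cxcl13, Cxcl14 and Xcl1, with vehicle means from 1.51 (Ccl27b) to 5.38 RPKM (Ccl19). The count was 4 without VD3 replicate 2, 15 without VD3 replicate 1 and 6 without vehicle replicate 3, and 3 when only the day 0 libraries entered the fit. After subtraction of the receptor gene median, 3 ligands fell and Cx3cl1 rose (1.32, adjusted p = 0.00428), from 4.01, 3.66 and 4.64 RPKM with vehicle to 4.68, 4.08 and 5.54 RPKM with VD3 before subtraction. Among all genes called in this comparison, 26.5% were higher, against 64.1% after median-ratio rescaling and 57.7% after quantile normalization. That share was not computed with the receptor gene median subtracted.

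In osteogenic cells none of Ccl2, Ccl7, Cxcl1 and Ccl9 passed the test for VD3. At osteogenic day 7, VD3 libraries had 36.7, 45.0 and 19.3 RPKM of Ccl7 (33.7 ± 13.1), 20.8, 21.1 and 15.9 RPKM of Ccl2 (19.3 ± 2.88) and 16.0, 13.3 and 19.5 RPKM of Cxcl1 (16.2 ± 3.12). All 3 overlapped with the vehicle libraries, and replicate 3 was low for Ccl7. The differences were -0.37 ± 0.22 for Ccl7, 0.25 ± 0.22 for Ccl2 and -0.21 ± 0.17 for Cxcl1 (adjusted p = 0.505, 0.756 and 0.720, limma). Only Cxcl14 fell, 1 of 30 ligands (2.35% of all genes lower, 2.91% higher), from 2.61 ± 0.504 RPKM to 1.08, 0.749 and 0.136 RPKM, by 1.16 on the log2 scale (adjusted p = 0.0118). That call for Cxcl14 was lost with a pseudocount of 0.1 (adjusted p = 0.0874) and without vehicle replicate 1, vehicle replicate 2 or VD3 replicate 3 (adjusted p = 0.0634, 0.0550 and 0.0887). At osteogenic day 15 none of the 30 ligands passed in limma, and 0 had an unadjusted p below 0.05 (0.526% of all genes were called higher and 0.246% lower). There Ccl7 was 12.6, 12.7 and 16.6 RPKM with VD3 (14.0 ± 2.26), Ccl2 8.76, 5.33 and 5.75 RPKM (6.61 ± 1.87), Cxcl1 16.0, 11.2 and 19.5 RPKM (15.5 ± 4.16) and Ccl9 1.41, 1.10 and 1.16 RPKM (1.23 ± 0.167). Of all genes called, the higher share was 55.3% at day 7 and 68.1% at day 15, and 39.0 and 82.6% with median-ratio rescaling.

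VD3 had opposite effects on Ccl9 and Cxcl1 in adipogenic cells. Ccl9 went from 31.8 ± 2.46 RPKM to 57.8, 77.8 and 72.1 RPKM (69.2 ± 10.3), the highest level among the 37 ligands in any group. All 3 VD3 libraries were above all vehicle libraries, and the rise was 1.09 on the log2 scale (adjusted p = 5.50e-04, limma), a 2.18-fold higher RPKM. Cxcl1 went from 6.92 ± 1.06 RPKM to 2.47, 4.0 and 2.76 RPKM (3.07 ± 0.812), without overlap, a fall of 0.97 (adjusted p = 0.00165). Ccl2, at 3.33, 1.99 and 4.38 RPKM (3.23 ± 1.20), differed by -0.55 ± 0.22 (adjusted p = 0.407), and Ccl7 by -0.05 ± 0.22 at 2.08, 1.47 and 1.01 RPKM (1.52 ± 0.537). Ccl6 overlapped between treatments at 8.85 ± 1.45 and 12.0 ± 2.51 RPKM. These were 1 rise and 1 fall of 30 ligands, where 1.51% of all genes were called higher and 0.574% lower. The summed leukocyte markers were 6.05 to 9.19 RPKM with vehicle and 7.93 to 9.72 RPKM with VD3. Among them Lyz2 was 2.92 ± 0.962 with vehicle and 0.763 ± 0.145 RPKM with VD3, and Fcer1g 0.433 ± 0.351 and 3.03 ± 1.14 RPKM. The mean of Fcer1g was higher with VD3 in the other states too. It went from 1.12 to 2.34 RPKM at day 0, 0.656 to 4.93 RPKM at osteogenic day 7 and 1.42 to 3.05 RPKM at day 15. The part of leukocytes in the rise of Ccl9 was not tested.

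**Figure D4:**
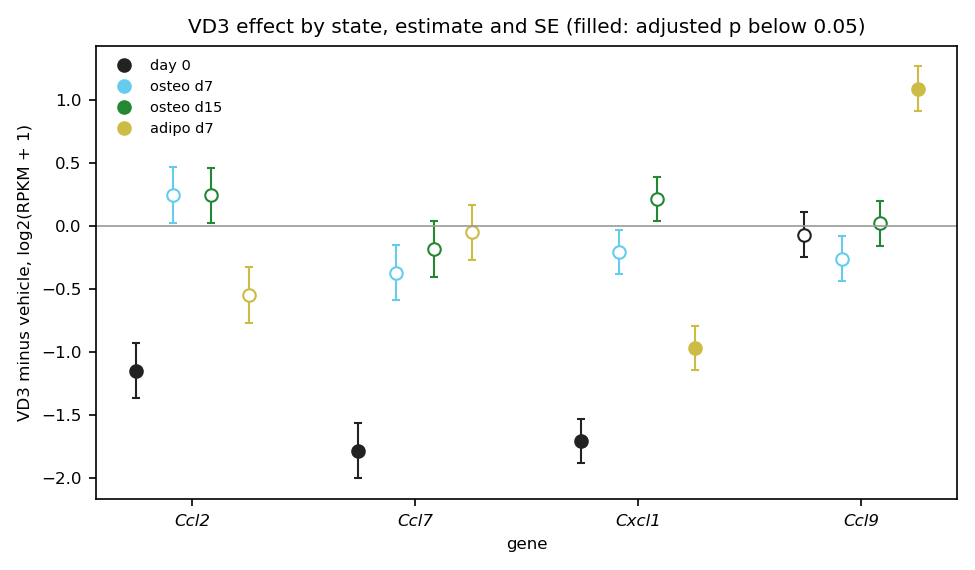
Difference between VD3 and vehicle in log2(RPKM + 1) for Ccl2, Ccl7, Cxcl1 and Ccl9 in the 4 states, with the standard error of limma as bars and filled points where the adjusted p was below 0.05. The day 0 points of Ccl2, Ccl7 and Cxcl1 lie between -1.79 and -1.15, and the adipogenic point of Ccl9 is at 1.09.

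The difference of the VD3 effect between states was tested directly. Between osteogenic day 7 and day 0 it was 1.40 ± 0.31 for Ccl2, 1.42 ± 0.31 for Ccl7 and 1.5 ± 0.25 for Cxcl1 (SE, adjusted p = 0.0183, 0.0175 and 0.00131, limma). At osteogenic day 7 the VD3 effect was less negative for Ccl7 and Cxcl1. For Ccl2 it was on the positive side there, without passing the test. In all, 6 of 30 ligands passed in that direction (1.85% of all genes) and 0 in the other (0.702% of all genes, and 0 ligands at an unadjusted p below 0.05). The 3 others were Ccl6, Ccl22 and Xcl1, all below the day 0 background in every group. The call of Ccl2 was lost with median-ratio rescaling (adjusted p = 0.110), with the receptor median subtracted (adjusted p = 0.0519) and without osteogenic day 7 VD3 replicate 1 (adjusted p = 0.0525). That of Ccl7 was lost with the first (adjusted p = 0.0827), without the same library (adjusted p = 0.0545) and when only the libraries compared were fitted (adjusted p = 0.135). Cxcl1 passed under every alternative tried, with an adjusted p of 0.0438 under median-ratio rescaling. Of all genes called, 72.5% were higher, 22.7% after median-ratio rescaling and 45.2% after quantile normalization.

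Between adipogenic and osteogenic day 7 the VD3 effect on Ccl9 differed by 1.35 ± 0.25 (adjusted p = 0.00401, limma), from -0.26 in osteogenic to 1.09 in adipogenic cells. It was the single ligand called (0.967% of all genes were called higher and 0.853% lower). With the receptor median subtracted the difference was 1.43 ± 0.37 (adjusted p = 0.0533). For Cxcl1 that difference was -0.76 ± 0.25 (adjusted p = 0.160). Between osteogenic days 15 and 7 no ligand passed (0.0521% of all genes higher and 0.133% lower), and 1 had an unadjusted p below 0.05, on the lower side.

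Genes around the ligands also moved with VD3 at day 0. All genes tested had a median log2 difference of -0.27 in this comparison, with 3.98% called higher and 11% lower. Of 19 tested chemokine receptors, 1 rose and 5 fell, with a median of -0.49, and in neither day 0 group did any receptor pass the background of its own library in all 3 libraries. Ccrl2, an atypical receptor that binds chemerin, was 0.615, 0.78 and 0.998 RPKM with vehicle and 5.04, 5.95 and 7.39 RPKM with VD3, a rise of 1.98 on the log2 scale (adjusted p = 5.47e-08, limma), without overlap. Ccrl1, an older symbol of Ackr4, the scavenger of Ccl19, Ccl21 and Ccl25, fell with VD3 at day 0 from 7.47 ± 0.468 to 3.66 ± 1.20 RPKM and in adipogenic cells from 7.72 ± 0.338 to 3.89 ± 0.255 RPKM (adjusted p = 4.26e-04 and 0.00268). Among 14 tested NF-kB subunits and inhibitors, 2 rose and 1 fell with VD3 at day 0, with a median of 0.015. Nfkbia, which holds NF-kB in the cytoplasm, rose from 9.50 ± 1.18 to 15.8 ± 2.19 RPKM (adjusted p = 9.73e-04), Nfkbiz, a nuclear inhibitor-like protein, from 6.13 ± 0.460 to 15.9 ± 0.683 RPKM (adjusted p = 2.45e-08), and Tnfaip3, a deubiquitinase that restrains NF-kB, fell from 13.3 ± 1.63 to 5.73 ± 1.46 RPKM (adjusted p = 1.85e-05). In osteogenic day 7 cells Nfkbiz rose too, from 4.83 ± 0.348 to 10.3 ± 1.37 RPKM (adjusted p = 2.78e-06), where Ccl2, Ccl7 and Cxcl1 did not pass. In adipogenic cells 1 of 14 rose, Nfkbia, from 18.3 ± 0.798 to 27.0 ± 4.0 RPKM (adjusted p = 0.0324), and 0 fell. There 1.51% of all genes were called higher and 0.574% lower.

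Other inflammatory genes were called in both directions with VD3 at day 0. Of 9 tested cytokine and adhesion genes, 1 rose and 1 fell, where 3.98% of all genes rose and 11% fell. Their median log2 difference was -0.26, near the -0.27 of all genes tested. Ptgs2, the inducible prostaglandin synthase, rose from 6.66 ± 0.835 to 11.0 ± 1.26 RPKM (adjusted p = 0.00297, limma) and Vcam1, a leukocyte adhesion molecule, fell from 80.7 ± 4.70 to 54.8 ± 4.32 RPKM (adjusted p = 0.0101). Of 16 interferon signalling genes 2 rose and 0 fell, with a median of -0.020. They were Rsad2, from 8.34 ± 1.70 to 18.1 ± 2.57 RPKM, and Ifit2, from 29.4 ± 2.65 to 40.7 ± 5.71 RPKM, both antiviral effectors. In adipogenic against osteogenic day 7 cells, 1 of the 9 cytokine and adhesion genes was higher and 4 were lower (12.4% and 25.4% of all genes). Ptgs2 fell by 2.82 on the log2 scale, from 13.2 ± 1.42 to 1.03 ± 0.240 RPKM. Vcam1 fell by 1.85 and Csf1, the macrophage growth factor, by 1.41. Lcn2, a neutrophil and adipose product, rose by 5.91, from 0.0787 ± 0.0876 to 64.4 ± 10.9 RPKM (adjusted p = 3.25e-17, limma).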

How the data were processed

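RNA-seq was analysed from 24 libraries in 8 groups of 3. The deposited values are RPKM per transcript, made by the authors with TopHat alignment to mm9, per the submitters' processing notes; the quantifier, annotation, filters and use of strand in counting are not given in the sources used here. Per the labels' protocols, ribosomal RNA was removed from total RNA and directional libraries were made. The 30795 transcripts were summed by symbol, leaving 25385 genes once 40 rows with date-like names were dropped; 4 of the 37 ligands have several transcripts. Depth was estimated from the whole-read steps of low olfactory receptor values, of which 73.3 to 86.7% by library lay within 0.1 of a whole read.

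The test was limma 3.58.1 (R 4.3.3) on log2(RPKM + 1), for genes that reached 1 RPKM in 3 libraries or more. It fitted 8 group means to the 24 libraries with trended, robust empirical Bayes, and p-values were adjusted by Benjamini-Hochberg within each of 12 comparisons. Of these, 5 set vehicle groups against each other, 4 set VD3 against vehicle and 3 tested differences of the VD3 effect. It was tried on simulated data. Scripts used Python 3.11.15, pandas 2.3.3 and matplotlib 3.10.9. Members, gene lists and the naming rule were chosen with earlier results of these data known. By that rule, ligands above the day 0 background are given in every group, other ligands mainly where called, and at most 4 called genes with 5 RPKM or more from each other list. Within groups, libraries correlated at 0.923 to 0.993, and 0 pairs were identical.

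Alternatives were: no filter or a filter at 5 RPKM, a pseudocount of 0.1, median-ratio and quantile scaling, a replicate block, a fit on only the libraries compared, the largest transcript, subtraction of each library's receptor gene median, VD3 libraries used for the comparisons of states, and each library left out in turn. An alternative with VD3-treated day 0 replicate 2 as the lone day 0 library was chosen after seeing the data and assumes that it varies like the other groups.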

Additional observations from a re-analysis of the deposited data

Results flagged for a closer look

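In 7 instances the effect of VD3 on a ligand differed between 2 states in a direct test of that difference. Between osteogenic day 7 and day 0 the effects differed by 1.40 for Ccl2, 1.42 for Ccl7 and 1.5 for Cxcl1 on the log2 scale. They also differed by 1.32 for Ccl22, 1.24 for Ccl6 and 1.79 for Xcl1 (adjusted p = 0.0122, 0.0403 and 0.0477, limma), whose levels were under the day 0 background. With vehicle and VD3, Ccl22 was 2.48 ± 0.347 and 0.830 ± 0.501 RPKM at day 0 and 0.172 ± 0.0549 and 0.513 ± 0.251 RPKM at osteogenic day 7. Xcl1 was 3.48 ± 0.919 and 0.980 ± 0.824 RPKM at day 0 and 0.106 ± 0.184 and 0.678 ± 0.657 RPKM at osteogenic day 7. The call for Ccl6 was lost in 9 of the refits that left out 1 library. Between adipogenic and osteogenic day 7 the effects differed by 1.35 for Ccl9.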

How the results depend on the processing

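The 4 ligands above the day 0 background were the same 4 without any 1 of the 24 libraries and with the 99th percentile, and 9 passed their own libraries' 95th percentile. Of 25 calls for these 4 ligands, 18 kept direction and side of the threshold under all alternatives, and of 424 refits 408 gave the same call, 12 lost it and 4 reversed. The reversals were at osteogenic day 15 against day 0 in VD3-treated libraries: Ccl7 was 0.47 and Cxcl1 1.19, and with day 0 replicate 2 as the lone day 0 library 0.44 and 0.99. Of these, Cxcl1 was called higher in both (adjusted p = 1.23e-05 and 0.00687) and Ccl7 did not pass (adjusted p = 0.0787 and 0.439), nor did Ccl2 (-0.38 and -0.40), and at osteogenic day 7 Ccl2, Ccl7 and Cxcl1 were higher than at day 0 (1.05, 1.61 and 1.27).

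Counts of ligands called against day 0 were 23 at osteogenic day 7, 23 at osteogenic day 15 and 28 in adipogenic cells. They became 3, 5 and 6 with a filter at 5 RPKM, which leaves 6 ligands, 8, 11 and 11 with quantile normalization, and 3, 7 and 6 with the receptor median subtracted. They were 6, 8 and 10 in VD3-treated libraries and 4, 5 and 7 with the lone day 0 library. For VD3 at day 0 the 10 calls became 5 with a pseudocount of 0.1, 4 at 5 RPKM, 6 with median-ratio rescaling, 4 with quantile normalization, 4 with the receptor median subtracted and 3 with only the libraries compared, and 4 to 15 leaving out 1 library. For VD3 at osteogenic day 7 the 1 call became 0 with a pseudocount of 0.1 and at 5 RPKM, and 0 to 1 leaving out 1 library. For the difference of VD3 effects between osteogenic day 7 and day 0, the 6 calls became 3 at 5 RPKM, 2 with median-ratio rescaling, 3 with quantile normalization, 3 with the receptor median subtracted and 2 with only the libraries compared, and were 2 (without osteogenic day 7 VD3 replicate 1) to 10 (without day 0 VD3 replicate 1). Quantile normalization gave 2 calls in place of 1 for the difference between adipogenic and osteogenic day 7. The cause was not tested.

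Median-ratio rescaling and quantile normalization shifted the median of all genes by 0.38 and 0.53 at osteogenic day 7, 0.35 and 0.61 at day 15, 0.44 and 0.77 in adipogenic cells against day 0, 0.19 and 0.29 for VD3 at day 0, and -0.27 and -0.34 for the difference of VD3 effects with day 0. Same-numbered libraries did not deviate together (median r of 0.0036, and -0.0043 for other numbers), and in no comparison were all 3 pairs over 0.1. With the replicate number as a block, called ligands were 23, 24 and 28 against day 0 and 11 for VD3 at day 0, and 0 to 5 of 6 libraries correlated best with their own number. On a transcript of 1 kilobase, 3 reads were worth up to 0.421 RPKM in the shallowest day 0 library and up to 0.246 RPKM in the shallowest library of differentiated cells, where the median of the 28 low ligands was 0.193 RPKM.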
